A study of Mus musculus with 8 samples.

Results

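Desmosomes are the spot-like junctions that hold neighbouring epithelial cells together, and the genes described here encode their proteins. The 10 genes Dsg2, Dsc2, Jup, Pkp1, Pkp2, Pkp3, Dsp, Ppl, Evpl and Perp were taken by symbol from the 24346 genes listed for each library. All 10 were above 0 in at least 1 library and were among the 18862 genes tested. RNA was measured in adipose-derived stem cells (ADSCs), the cells that grow out of the digested gonadal fat of wild-type male BALB/c mice aged 12 weeks. The cells of 4 mice (mice 2, 3, 4 and 5) were grown in 2D. The cells of 4 mice (mice 1, 4, 5 and 7) were grown in 3D, embedded in Matrigel, a basement membrane extract, as organotypic cultures. The study grew 3D cultures in several media, with or without conditioned medium that holds the Wnt pathway ligands Wnt3a and R-Spondin1. The medium and passage of each sequenced culture are not given in the sources used here, so matrix, medium and passage cannot be told apart. Mice 4 and 5 thus gave a library of each culture, and no gene was deleted or introduced in either group. The values are FPKM, which are scaled to transcript length and library depth, after quantile normalization across the 8 libraries.

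In a desmosome, the cadherins desmoglein and desmocollin cross the membrane and bind those of the next cell. On the inner side, the armadillo proteins plakoglobin and the plakophilins bind the cadherin tails, and the plakin desmoplakin ties this plaque to the intermediate filaments, mostly keratins. Desmosomes are typical of epithelia and heart muscle, and adipose stromal cells, which are of mesenchymal type, are not known for them.

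Depth was estimated at 14.5 to 17.4 M fragments per library, and some libraries stood apart within a culture. Stromal markers (Col1a1, Col3a1, Pdgfra, Pdgfrb and Dcn) summed to between 743 and 1072 FPKM in 2D and to between 0.0465 and 0.122 FPKM in 3D. These markers were thus near 0 in every 3D library, and 5 of 5 were lower. Over all genes tested, 21.2% were called higher and 20.3% lower. Of the mesenchymal stem cell surface genes, Thy1 and Eng were lower, Ly6a was higher, and Cd44 and Nt5e were not called. On the deposited values Ly6a lost its call (adjusted p 0.0570) and Cd44 was lower (adjusted p 0.0314), and without the 2D libraries of mice 3 and 4 Ly6a lost its call (adjusted p 0.0804) and Nt5e was lower (adjusted p 0.0163). That omission was chosen after seeing the data and takes out the high 2D values of Nt5e (15.5 and 60.6 FPKM), so the p of Nt5e gives no support for a decrease. Epithelial markers (Epcam, Cdh1, Krt8, Krt18 and Cldn7) summed to between 1815 and 2076 FPKM in 3D, with 4 of 5 higher. In 2D they came to 2.98, 142, 517 and 0.294 FPKM in mice 2, 3, 4 and 5, in mice 3 and 4 nearly all from Krt8 and Krt18. The 2D libraries of mice 3 and 4 also held the mesothelial markers Msln, Upk3b, Upk1b, Lrrn4 and Wt1, at a sum of 816 and 2002 FPKM against at most 33.7 FPKM in the other 6 libraries, with 0 of 5 called. The 3D library of mouse 1 held the basal keratinocyte genes Krt5 and Trp63 at 326 and 131 FPKM, where the other 3D libraries were at most at 0.435 and 7.01 FPKM, and 0 of 5 keratinocyte markers were called. Endothelial, macrophage and epididymal markers summed to at most 8.52, 42.3 and 4.12 FPKM, with Cd68 of macrophages higher and the others not called. Of the adipocyte genes, Adipoq and Lep were at 0 in every library and Lpl was lower in 3D. In RNA from whole cultures, fewer cells of a type and less RNA per cell cannot be told apart.

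Compared with 2D, 8 of the 10 desmosomal genes were higher in 3D and 0 were lower at an adjusted p below 0.05, with 0 lower also at an unadjusted p below 0.05 (limma, Benjamini-Hochberg over all genes tested). Of all genes tested, 21.2% were called higher and 20.3% lower by the same rule. The genes called were both cadherins (Dsg2 and Dsc2), plakoglobin (Jup), 1 of 3 plakophilins (Pkp3), all 3 plakins (Dsp, Ppl and Evpl) and Perp, whereas Pkp1 and Pkp2 were not called. For 9 of the 10 genes, all 4 libraries of the 3D cultures lay above all 4 of the 2D cultures, which held for 21.6% of all genes tested, and Pkp2 was the exception. For 0 genes did all 3D libraries lie below the 2D libraries (20.9% of all genes tested). On the deposited values without quantile normalization, the libraries were separate for 7 of the 10 genes (23.6% of all genes tested), since Jup and Perp also overlapped there. Over the 10 genes the log2 fold change had a median of 3.59, also with Dsg2 set to its lower bound, beside 0.00 over all genes tested. The 10 levels summed to between 48.9 and 91.6 FPKM in 2D and to between 202 and 401 FPKM in 3D. Only mice 4 and 5 gave both cultures, so a fit that blocks on the mouse has 1 residual degree of freedom. In that fit, 0 of the 10 genes were called, with adjusted p between 0.111 and 0.268 for the 8 genes, of which 6 had an unadjusted p below 0.05. That block called 0 of the 18862 genes, of which 2833 were higher and 2383 lower at an unadjusted p below 0.05.

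**Figure D1:**
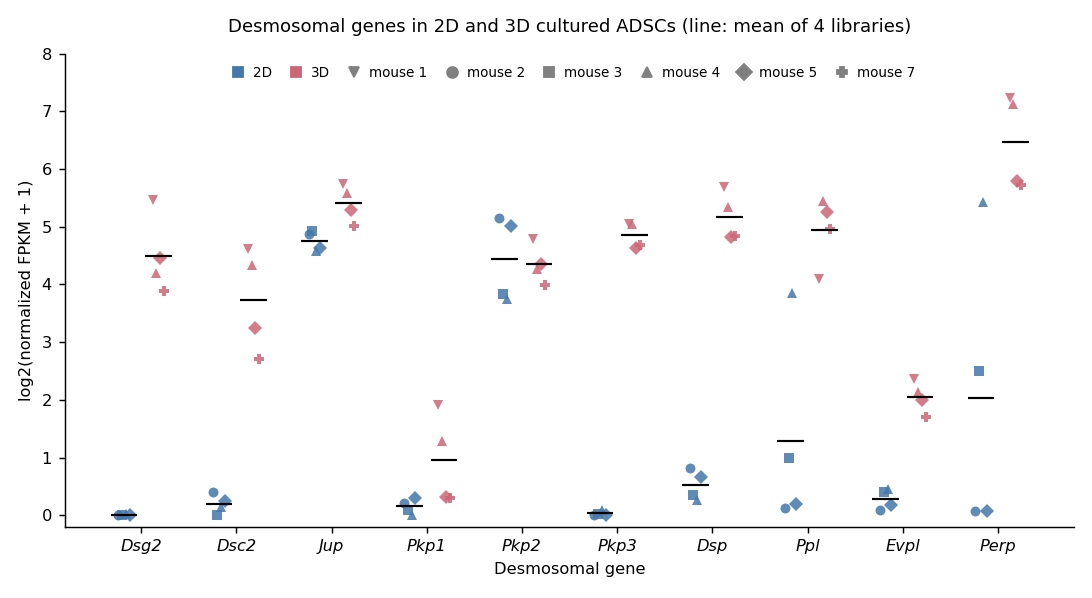
Level of each desmosomal gene in each library, as log2(normalized FPKM + 1), with 2D libraries in blue, 3D libraries in red, a symbol for each mouse and a line at the mean of 4 libraries. Dsg2, Dsc2, Pkp3 and Dsp lie close to 0 in all 2D libraries and well above it in all 3D libraries, Jup and Pkp2 are present in both cultures, and Perp and Ppl spread widely over the 2D libraries.

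The desmosomal cadherins went from traces to moderate levels. Dsg2 encodes desmoglein 2, the desmoglein of simple epithelia and heart, and lies on chromosome 18. It was at 0, 0, 0.0163 and 0 FPKM in 2D (mice 2, 3, 4 and 5) and at 43.1, 17.2, 21.0 and 13.8 FPKM in 3D (mice 1, 4, 5 and 7). No 2D library therefore held more than an estimated 3 fragments of it, and the 3D libraries held between 1233 and 3208. Against the level that 3 fragments per library would give, Dsg2 was at least 698-fold higher in 3D, and at least 528-fold higher without the 3D library of mouse 1 (limma, adjusted p 3.6e-05 for the difference). The antisense gene Gm16090 overlaps Dsg2, and it is not stated whether the counting used strand.

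Dsc2, also on chromosome 18, encodes desmocollin 2, the partner cadherin. Its level was 0.324, 0, 0.0978 and 0.192 FPKM in 2D and 23.3, 19.2, 8.48 and 5.54 FPKM in 3D. The groups did not overlap, but the 3D libraries themselves spread from the lowest in mouse 7 to the highest in mouse 1. On average Dsc2 changed by 3.52 ± 0.42 in log2 fold change (SE, n = 4 per group, adjusted p 4.3e-04). This value, like those that follow, is on the log2(FPKM + 1) scale, where a low gene appears to change less than it did. On the linear scale the 3D mean, 14.1 ± 8.48 FPKM (SD), was 92.1 times the 2D mean of 0.153 ± 0.138 FPKM. With a single library left out, it ran from 69.1 times (without the 2D library of mouse 3) to 146 times (without that of mouse 2). The 2D mean rests on an estimated 0 to 15.6 fragments per library, so this ratio is imprecise. The ratio of Dsg2 to Dsc2 in 3D was 1.85, 0.900, 2.47 and 2.49 in mice 1, 4, 5 and 7, so that desmoglein RNA exceeded desmocollin RNA in 3 of 4 libraries.

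The cadherins of stratified epithelia were not called. Among 8 other desmosomal genes (Dsg1a, Dsg1b, Dsg1c, Dsg3, Dsg4, Dsc1, Dsc3 and Cdsn, the corneodesmosin gene), Dsg4 was at 0 in every library. Of the 7 tested, 0 were called in either direction in the reported fit, also at an unadjusted p below 0.05. Over all genes tested, 21.2% were called higher and 20.3% lower. Apart from Cdsn, the 7 genes were near 0 in most libraries, where the log2(FPKM + 1) scale leaves little room for a call. With a pseudocount of 0.1 in limma, the unadjusted p was 0.0330 for Dsg1c and 0.0466 for Dsg3 (adjusted p 0.0705 and 0.0936). In the reported fit the median log2 fold change of the 7 genes was 0.02, also with Dsg3 set to its lower bound. Dsg3, the desmoglein of basal keratinocytes, was at 0, 0, 0 and 0.0300 FPKM in 2D and at 1.76, 0.217, 0.0185 and 0.130 FPKM in 3D (adjusted p 0.234). Its highest value was in the 3D library of mouse 1, which also held Krt5. The Dsg1 genes, Dsc1 and Dsc3 stayed at or below 0.0601 FPKM in all 8 libraries, and Cdsn was at between 0.581 and 2.18 FPKM in 2D and between 0.187 and 1.24 FPKM in 3D (adjusted p 0.402).

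Dsp encodes desmoplakin, an obligate component of desmosomes. The gene lies at chr13:38151294-38198577 on the plus strand of GRCm38 (GENCODE M21), and its longest coding transcript has 24 exons and 9592 nt. Its level was 0.761, 0.271, 0.206 and 0.584 FPKM in 2D and 50.5, 39.4, 27.4 and 27.5 FPKM in 3D. The lowest 3D library was thus far above the highest 2D library, and the 2D values rest on an estimated 37.5 to 80.1 fragments per library, so Dsp was low but not at the floor in 2D. The means were 0.456 ± 0.262 and 36.2 ± 11.1 FPKM (SD), a ratio of 79.5, with a log2 fold change of 4.65 ± 0.24 (SE, adjusted p 6.3e-06). Among the genes tested, Dsp moved from between the 29.0th and 36.6th percentile of a 2D library to between the 84.7th and 91.9th of a 3D library.

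Jup encodes plakoglobin, which is also a component of adherens junctions. It lies at chr11:100368958-100397763 on the minus strand. Its level was 28.4, 29.3, 22.9 and 23.8 FPKM in 2D and 52.4, 46.8, 38.0 and 31.2 FPKM in 3D. Plakoglobin RNA was therefore abundant in both cultures, and the groups were separate by a small gap, between 29.3 and 31.2 FPKM. On the deposited values they overlapped, with 28.5 FPKM in the 3D library of mouse 7 below those of mice 2 and 3 in 2D, at 31.2 and 30.5 FPKM. The 3D mean of 42.1 ± 9.38 FPKM (SD) was 1.61 times the 2D mean of 26.1 ± 3.21 FPKM, with a log2 fold change of 0.65 ± 0.17 (SE, adjusted p 0.0169). This call depended on the scaling and on the libraries. On the deposited values without quantile normalization the log2 fold change was 0.40 (adjusted p 0.0818), and without the 2D libraries of mice 3 and 4 it was 0.63 (adjusted p 0.0672), within a range of adjusted p from 0.00645 to 0.0836 over the alternatives without a block. The ratio of Jup to Dsp was 37.3, 108, 111 and 40.8 in the 2D libraries and 1.04, 1.19, 1.39 and 1.13 in the 3D libraries, so these plaque genes were near equal in level in 3D and Jup exceeded Dsp in all 8 libraries.

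Of the 10 genes, Dsp and Jup were matched in the RefSeq promoter table, and their promoters are shown to set a gene near 0 in 2D beside a gene present in both cultures. Each is printed 5′ to 3′ on the strand of the gene, from 250 bases before to 20 bases after the RefSeq transcription start (GRCm38.p6), at chr13:38151044-38151313 for Dsp and chr11:100397771-100398040 for Jup. Dsg2, Dsc2, Pkp1, Pkp2, Pkp3, Ppl, Evpl and Perp were not matched. Capitals mark matches, on either strand, to CAGGTG, the E-box that Snai and Zeb repressors can bind, and to GGGCGG, a GC box that SP and KLF factors can bind, which reads CCGCCC where it lies on the opposite strand.
Dsp: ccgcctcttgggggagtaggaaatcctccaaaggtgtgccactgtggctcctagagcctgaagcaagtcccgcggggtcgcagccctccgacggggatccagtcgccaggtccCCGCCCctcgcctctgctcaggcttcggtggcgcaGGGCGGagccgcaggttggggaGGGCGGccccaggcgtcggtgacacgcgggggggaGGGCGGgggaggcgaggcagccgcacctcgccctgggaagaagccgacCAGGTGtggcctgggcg
Jup: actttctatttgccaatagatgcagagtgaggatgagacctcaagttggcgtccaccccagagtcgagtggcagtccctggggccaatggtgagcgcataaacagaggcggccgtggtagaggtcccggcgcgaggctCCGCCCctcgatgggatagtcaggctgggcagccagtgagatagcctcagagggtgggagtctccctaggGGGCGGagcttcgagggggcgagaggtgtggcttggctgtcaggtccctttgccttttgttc
The Dsp window is 72.6% G or C and the Jup window 61.1%, beside a median of 52.6% over all windows. Dsp holds 1 CAGGTG, which begins at position 4 with the start base counted as 1. It also holds 4 GC boxes, at -137 on the opposite strand and at -102, -80 and -45. Jup holds no CAGGTG and has GC boxes at -112 on the opposite strand and at -42. Neither holds AACCGGTT, a grainyhead-like motif, or TGANTCA, an AP-1 motif. Of 32851 windows of 300 bases in the table, 20.2% hold CAGGTG, 35.7% GGGCGG, 0.146% AACCGGTT and 7.81% TGANTCA, and no motif in the list overlaps another in these windows. A match of letters is a description of the sequence only.

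The plakophilins, which cluster the cadherins and desmoplakin in the plaque, split into 3 behaviours. Pkp3 (chr7:141078218-141090510, plus strand), the plakophilin found in most simple and stratified epithelia, was at 0, 0.0208, 0.0676 and 0 FPKM in 2D and at 32.2, 32.1, 23.9 and 24.6 FPKM in 3D. Its 2D values correspond to at most an estimated 4.2 fragments in a library. Its fitted log2 fold change was 4.82 ± 0.15 (SE, adjusted p 5.7e-07).

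Pkp2 (chr16:16213318-16272712, plus strand), which is broadly expressed and essential in heart, was at 34.6, 13.3, 12.3 and 31.2 FPKM in 2D and at 26.7, 18.3, 19.3 and 14.9 FPKM in 3D. All 3D values lay within the range of the 2D values, and the 2D libraries fell into 2 high (mice 2 and 5) and 2 low (mice 3 and 4). The log2 fold change was -0.08, with a 95% confidence interval from -0.94 to 0.77 (adjusted p 0.865), which leaves room for a change of either sign. The 2 low libraries were those with mesothelial markers. Without them the log2 fold change of Pkp2 was -0.71 (adjusted p 0.0480). Without the 3D library of mouse 1 as well it was -0.87 (adjusted p 0.00706). Both omissions were chosen after seeing the data. They take out the 2 lowest 2D values and then the highest 3D value of Pkp2, so these p give no support for a decrease. Over all alternatives without a block the adjusted p ran from 0.00706 to 0.950. The part of mesothelial cells in the 2D levels of Pkp2 was not tested.

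Pkp1 (chr1:135871395-135919207, minus strand), the plakophilin of stratified epithelia, was at 0.165, 0.0708, 0 and 0.228 FPKM in 2D and at 2.77, 1.45, 0.252 and 0.235 FPKM in 3D. No 3D library was below a 2D library, but the gap was from 0.228 to 0.235 FPKM, an estimated 11.4 against 16.7 fragments. The log2 fold change of 0.81 ± 0.35 (SE, 95% confidence interval from -0.02 to 1.63) was not called (adjusted p 0.109), and it was called in none of the alternatives that included it, since the filter at a mean of 1 FPKM left it out. Its highest value was in the 3D library of mouse 1, which held Krt5, and without that library the log2 fold change was 0.47 (adjusted p 0.169). Gm36938 overlaps Pkp1 on the same strand, so reads may have been split between them.

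The make-up of the summed FPKM of Pkp1, Pkp2 and Pkp3 therefore differed between the cultures. This sum leaves out Pkp4, which is described below among the relatives outside the desmosome. Pkp4 was at 16.1, 9.28, 7.56 and 16.8 FPKM in 2D (mice 2, 3, 4 and 5). In 3D it was at 62.7, 37.8, 40.6 and 32.9 FPKM (mice 1, 4, 5 and 7), above Pkp2 and Pkp3 in every library. With Pkp4 counted, the shares given here would be smaller. Pkp2 supplied between 99.3% and 99.5% of the sum in 2D and between 35.3% and 44.5% in 3D. Pkp3 supplied at most 0.544% in 2D and between 52.2% and 62.0% in 3D. Pkp1 was at most 0.725% of the sum in 2D, and in 3D it was 4.5%, 2.8%, 0.580% and 0.591% in mice 1, 4, 5 and 7. The sum itself was 34.7, 13.4, 12.4 and 31.4 FPKM in 2D and 61.7, 51.8, 43.5 and 39.7 FPKM in 3D. After quantile normalization the sum was thus larger in every 3D library than in every 2D library, with Pkp2 in the range of the 2D cultures. On the deposited values the 3D library of mouse 7, at 38.0 FPKM, was just below the 2D library of mouse 2, at 38.8 FPKM.

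**Figure D2:**
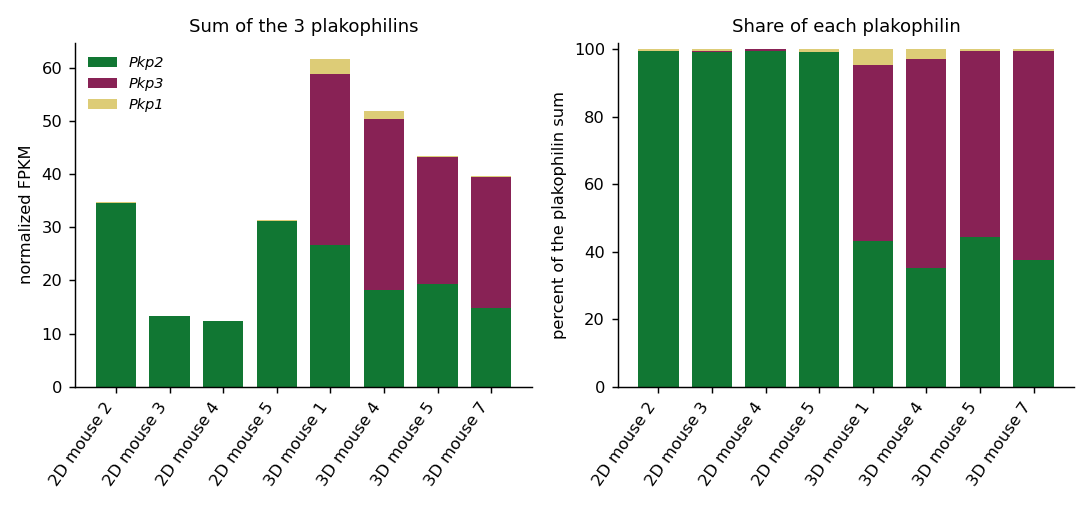
Stacked bars of the plakophilin genes Pkp1, Pkp2 and Pkp3 in each library, on the left as normalized FPKM and on the right as percent of their sum. Pkp4 is left out. The 2D bars are almost wholly Pkp2, whereas Pkp3 takes between 52.2% and 62.0% of the 3D bars.

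Ppl and Evpl encode periplakin and envoplakin, plakins that pair with each other at desmosomes and in the cornified envelope. Ppl (chr16:5086291-5132421, minus strand) was at 0.0885, 0.983, 13.4 and 0.149 FPKM in 2D and at 16.0, 42.5, 37.3 and 30.1 FPKM in 3D. All 3D libraries were above all 2D libraries, but the 2D library of mouse 4 nearly reached the 3D library of mouse 1. The log2 fold change was 3.65 ± 0.82 (SE, 95% confidence interval from 1.74 to 5.56, adjusted p 0.00918). Without the 2D library of mouse 4 it was 4.49 (adjusted p 2.2e-04), and over the alternatives without a block the adjusted p ran from 1.0e-04 to 0.181, the latter with only mice 4 and 5.

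Evpl (chr11:116220559-116238077, minus strand) was lower in level and tighter. It was at 0.0591, 0.328, 0.365 and 0.133 FPKM in 2D and at 4.15, 3.39, 2.98 and 2.24 FPKM in 3D, without overlap. The means of 0.221 ± 0.148 and 3.19 ± 0.797 FPKM (SD) stood in a ratio of 14.4, with a log2 fold change of 1.77 ± 0.17 (SE, adjusted p 1.4e-04). In 3D, Ppl exceeded Evpl by 3.85 times in mouse 1 and by up to 13.4 times in the other mice.

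Among genes of the cornified envelope, 1 was called, where 21.2% of all genes tested were called higher and 20.3% lower. Of 10 genes listed for that structure, 9 were tested, 1 was higher (Tgm1, the transglutaminase that cross-links the envelope, log2 fold change 0.62 ± 0.14, adjusted p 0.00867) and 0 were lower, and the median log2 fold change was 0.02. The Tgm1 levels were low, between 0.0219 and 0.0891 FPKM in 2D and between 0.282 and 1.12 FPKM in 3D, and the call was lost without the 2D libraries of mice 3 and 4 (adjusted p 0.0534). Involucrin (Ivl), an envelope precursor, was at 1.62, 19.5, 119.8 and 1.32 FPKM in 2D and at 5.10, 1.12, 0.246 and 0.396 FPKM in 3D (adjusted p 0.187), high in the libraries with mesothelial markers.

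Perp encodes a tetraspan membrane protein of the desmosome and is a target gene of p53 and p63. The gene lies at chr10:18845020-18857073 on the plus strand. It was at 0.0554, 4.66, 42.2 and 0.0574 FPKM in 2D and at 149.7, 138.8, 54.1 and 51.9 FPKM in 3D, where it was the most abundant of the 10 genes in every library. The 2D libraries of mice 2 and 5 held about 1 fragment each, whereas that of mouse 4, at 42.2 FPKM, was close to the lowest 3D library. On the deposited values, the 2D library of mouse 4 (46.3 FPKM) was above the 3D libraries of mice 5 and 7 (45.5 and 44.1 FPKM). The log2 fold change was 4.44 ± 1.18 (SE, 95% confidence interval from 1.70 to 7.19, adjusted p 0.0187). Without the 2D library of mouse 4 it was 5.55 (adjusted p 0.00140), and over the alternatives without a block the adjusted p ran from 4.7e-04 to 0.287, the latter with only mice 4 and 5.

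Perp and Ppl were higher in the 2D libraries of mice 3 and 4 than in those of mice 2 and 5, and so were the mesothelial markers. In mice 2, 3, 4 and 5, Msln was at 0.388, 253, 728 and 0.286 FPKM in 2D, and Upk3b at 0, 192, 481 and 0 FPKM. Evpl was also higher in mice 3 and 4, at 0.328 and 0.365 FPKM against 0.0591 and 0.133 FPKM in mice 2 and 5, and so was Krt8, at 0, 26.8, 261 and 0.0603 FPKM in mice 2, 3, 4 and 5. In 3D, the mesothelial markers summed to 1.57, 33.7, 5.78 and 6.23 FPKM in mice 1, 4, 5 and 7. The part of mesothelial cells in the 2D levels of Perp, Ppl and Evpl was not tested. Dsp did not share this order, at 0.271 and 0.206 FPKM in mice 3 and 4 against 0.761 and 0.584 FPKM in mice 2 and 5, and neither did Dsc2, at 0 and 0.0978 against 0.324 and 0.192 FPKM.

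**Figure D3:**
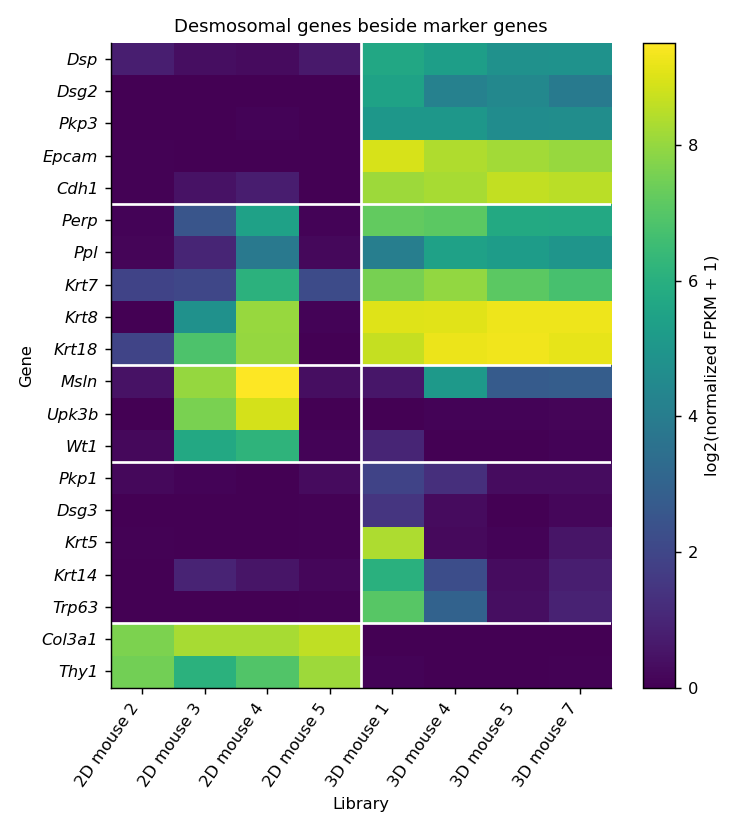
Heat map of desmosomal and marker genes (rows) in the 8 libraries (columns), coloured by log2(normalized FPKM + 1). Perp, Ppl, Krt7, Krt8 and Krt18 share their high 2D values with Msln, Upk3b and Wt1 in the library of mouse 4, whereas Dsp, Dsg2 and Pkp3 are dark in all 2D libraries, and Krt5, Krt14 and Trp63 are bright in the 3D library of mouse 1.

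Mice 4 and 5, which gave both cultures, allow each gene to be followed within an animal. From 2D to 3D, Dsp rose from 0.206 to 39.4 FPKM in mouse 4 and from 0.584 to 27.4 FPKM in mouse 5, differences of 5.07 and 4.16 on the log2(FPKM + 1) scale. The differences in mice 4 and 5 were 4.17 and 4.46 for Dsg2, 4.20 and 2.99 for Dsc2, 4.95 and 4.64 for Pkp3, 1.68 and 1.81 for Evpl and 1.00 and 0.65 for Jup. These 6 genes, and also Perp, Ppl and Pkp1, were higher in 3D in both animals. The share of all genes tested for which this held was not computed, so their number is not read as an excess over other genes. Perp differed by 1.69 in mouse 4, whose 2D library held mesothelial markers, and by 5.70 in mouse 5, and Ppl by 1.59 and 5.06. Pkp2 went opposite ways, with 0.53 in mouse 4 and -0.66 in mouse 5, and Pkp1 differed by 1.29 and 0.03. In an unpaired fit with only these 2 mice, 6 of the 10 genes were called higher, without Perp and Ppl. Among the 18081 genes tested in that fit, 1788 were called higher in 3D and 1432 lower. A block for the mouse over all libraries called 0 of the 10 genes, and 0 of the 18862 genes tested there.

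**Figure D4:**
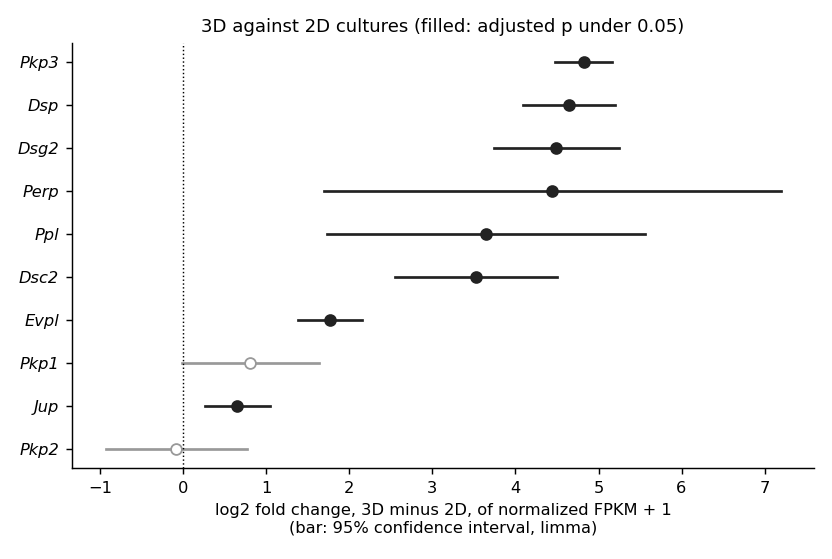
Log2 fold change of each desmosomal gene, 3D minus 2D, with bars for the 95% confidence interval from limma, filled where the adjusted p was below 0.05. The intervals of Pkp2 and Pkp1 include 0, those of Perp and Ppl are wide, and those of Pkp3 and Dsp are narrow.

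By mean FPKM, the order of the genes in 3D was Perp, Jup, Dsp, Ppl, Pkp3, Dsg2, Pkp2, Dsc2, Evpl and Pkp1. Neighbours in this order overlapped in their ranges, with Dsc2 above Evpl as the exception. Within libraries, Perp exceeded Jup and Jup exceeded Dsp in 4 of 4 libraries, but Dsp exceeded Ppl in 1 of 4. In 2D the order was Jup, Pkp2, Perp, Ppl, Dsp, Evpl, Dsc2, Pkp1, Pkp3 and Dsg2, and each neighbour overlapped the next. Jup and Pkp2 were at 12.3 FPKM or more in every 2D library, and none of the other 8 genes was. Jup stood between the 81.8th and 85.7th percentile of the genes tested in 2D and between the 86.6th and 92.2nd in 3D, whereas Pkp3 went from between the 18.2nd and 23.0th to between the 82.5th and 87.0th.

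The genes whose levels followed Dsp most closely over the 8 libraries, by Pearson's correlation of log2(FPKM + 1) among 12574 candidates, were Camsap3 (r = 0.998), Syne4, Slc44a4, Mlph and Cdcp1 (r = 0.997 each). Camsap3 binds the minus ends of microtubules, Syne4 links the nucleus to kinesin, Slc44a4 is a choline transporter-like protein, Mlph links Rab27a to myosin Va, and Cdcp1 is a transmembrane substrate of Src kinases. Slc44a4 was not detected in 2D and lay between 11.9 and 19.2 FPKM in 3D. The libraries fall into 2 groups, so these correlations mostly describe the difference between the cultures and carry no p.

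Relatives that act outside the desmosome moved in both directions. Of 16 such genes, 7 were higher and 8 lower in 3D, with a median log2 fold change of -0.28. Over all genes tested, 21.2% were called higher and 20.3% lower. Among the armadillo proteins, Pkp4 (1.76 ± 0.30, SE, adjusted p 0.00239), Ctnnd2 (2.93 ± 0.47, adjusted p 0.00192), Arvcf (1.53 ± 0.47, adjusted p 0.0333) and β-catenin, Ctnnb1 (0.79 ± 0.13, adjusted p 0.00211), were higher in log2 fold change. Arvcf lost its call without the 3D library of mouse 1 (adjusted p 0.0760), and Ctnnb1 on the deposited values (0.25, adjusted p 0.0567). The p120 catenin gene Ctnnd1 was not called (-0.19, adjusted p 0.178) but was lower on the deposited values (-0.76, adjusted p 0.00116). Ctnnb1 exceeded its close relative Jup by 5.24 to 8.18 times in 2D and by 5.35 to 10.02 times in 3D, ranges that overlap.

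The plakins moved in both directions. Plec, Dst and Macf1, large linkers of the cytoskeleton to hemidesmosomes, focal contacts or microtubules, were lower in 3D (log2 fold changes of -0.80, -1.43 and -0.37, adjusted p 0.0209, 8.9e-04 and 0.0319). Macf1 lost its call without the 2D libraries of mice 3 and 4 (adjusted p 0.178). Eppk1, epiplakin, which binds keratin, was higher, at between 0.200 and 1.39 FPKM in 2D and between 4.95 and 8.59 FPKM in 3D (log2 fold change 2.20 ± 0.26, adjusted p 4.5e-04). Of 7 plakin genes, the 3 desmosomal ones and Eppk1 were thus higher and the other 3 lower.

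Among relatives of Perp, Emp2 was higher (2.18, adjusted p 0.00233), whereas Pmp22, Emp1 and Emp3 (log2 fold changes from -6.07 to -4.50) and Tmem47 were lower. Tmem47, another junctional tetraspan protein, was at between 6.30 and 32.4 FPKM in 2D and at or below 0.0168 FPKM in 3D, at least 390-fold lower. The classical cadherins of adherens junctions went opposite ways. E-cadherin, Cdh1, was at or below 0.716 FPKM in 2D and at 276, 306, 401 and 371 FPKM in 3D, and N-cadherin, Cdh2, was at 61.3, 90.9, 142 and 59.9 FPKM in 2D and at or below 0.135 FPKM in 3D. Their log2 fold changes were 8.06 ± 0.20 and -6.30 ± 0.27 (SE, adjusted p 2.1e-07 and 2.6e-06).

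**Figure D5:**
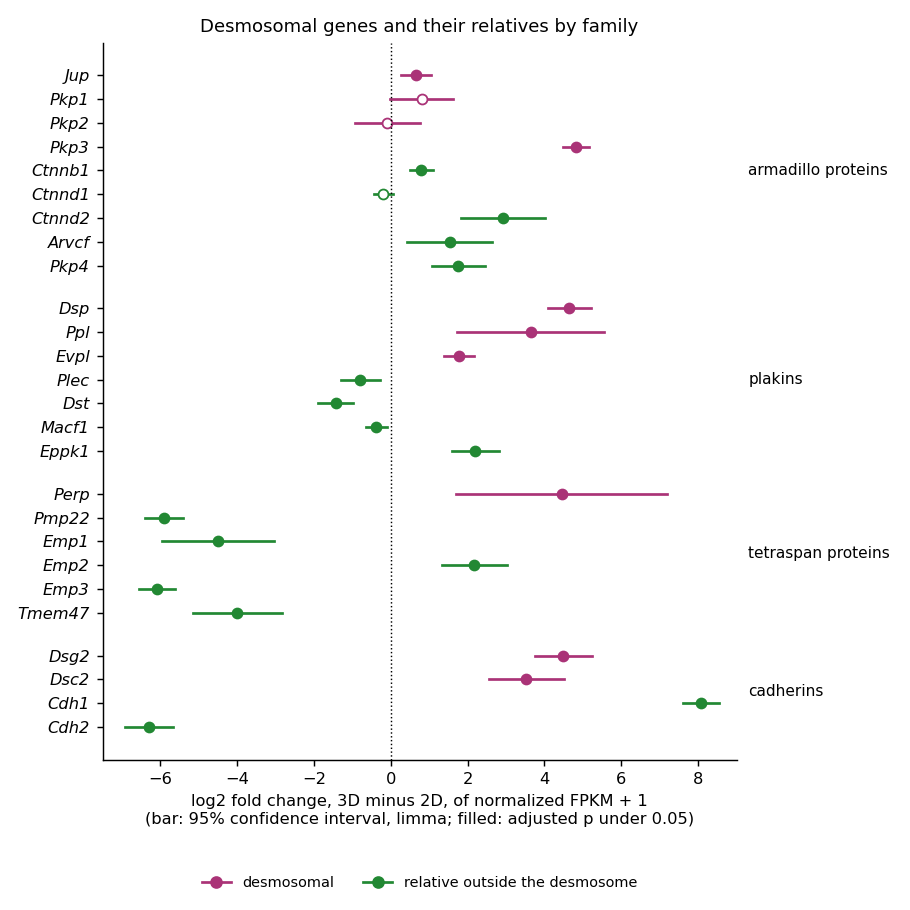
Log2 fold change, 3D minus 2D, of desmosomal genes (purple) and of relatives outside the desmosome (green) in 4 protein families, with bars for the 95% confidence interval from limma and filled points for an adjusted p below 0.05. Relatives lie on both sides of 0 with filled points among the plakins, tetraspan proteins and cadherins, and none of the desmosomal genes has a filled point left of 0. Ctnnd1, which is open here, and Ctnnb1 change their call on the deposited values.

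The intermediate filament genes, whose proteins desmosomes anchor, moved in both directions. Of 13 genes, 3 were higher (Krt7, Krt8 and Krt19), 3 were lower (Vim, Krt20 and Des), and 7 were not called. Over all genes tested, 21.2% were called higher and 20.3% lower, so these counts do not set the list apart. The median was 1.22 in log2 fold change, or 1.94 after setting 4 genes to their bounds. A bound uses the 3D mean, which for Krt5 and Krt6a came mostly from mouse 1, and neither gene was called. Krt6a was at 15.5 FPKM there and at most at 0.537 FPKM in the other 3D libraries. The bound of Krt5 fell from at least 819-fold to at least 2.87-fold without 1 3D library. Krt8 was at 524, 540, 616 and 623 FPKM in 3D (log2 fold change 5.94 ± 1.73, adjusted p 0.0268). Its partner Krt18 was at 2.89, 114, 256 and 0 FPKM in 2D and at 403, 606, 635 and 564 FPKM in 3D, which missed the threshold (4.89 ± 1.70, adjusted p 0.0519). Without the 2D libraries of mice 3 and 4 it was higher (8.06, adjusted p 2.4e-04). That omission was chosen after seeing the data and takes out the high 2D values of Krt18 (114 and 256 FPKM), so that p gives no support for an increase. Vim, vimentin of mesenchymal cells, was at between 1587 and 3155 FPKM in 2D and at between 0.667 and 8.82 FPKM in 3D (-9.08 ± 0.55, adjusted p 1.5e-05). Krt19 lost its call on the deposited values (adjusted p 0.0567), Krt8 without the 3D library of mouse 1 (adjusted p 0.0513), and Des, which was at 0 in all 3D libraries, in both cases (adjusted p 0.0741 without that library). The basal keratins Krt5 and Krt14 reached 326 and 64.6 FPKM in mouse 1 alone among the 3D cultures and were not called (adjusted p 0.351 and 0.223).

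Of 9 transcription factor genes known to act on junction genes, 2 were higher, 5 lower and 2 not called, with a median log2 fold change of -0.53. The shares over all genes tested were 21.2% higher and 20.3% lower. Grhl2, a grainyhead-like activator of epithelial junction genes, was at 0, 0, 0 and 0.0273 FPKM in 2D and at 40.1, 26.8, 25.6 and 25.3 FPKM in 3D. It was at least 735-fold higher (adjusted p 9.9e-07), and Grhl1 was higher as well (1.82 ± 0.16, adjusted p 1.1e-04). The repressors of epithelial genes Snai1, Snai2, Zeb1 and Zeb2 were lower, Zeb1 from between 11.9 and 23.0 FPKM to at most 0.0807 FPKM and Zeb2 from between 17.6 and 21.2 FPKM to at most 0.0326 FPKM (adjusted p 8.1e-06 and 4.1e-07). Trp53, which encodes p53, was lower (-0.53 ± 0.13, adjusted p 0.0121). Trp63, which encodes p63, was at or below 0.0447 FPKM in 2D and at 131, 7.01, 0.266 and 0.886 FPKM in 3D (adjusted p 0.136, but higher at an adjusted p of 0.0300 with a pseudocount of 0.1), and Grhl3 was not called (adjusted p 0.107). The 3D libraries of mice 1 and 4, with the highest Trp63, also had the highest Perp, Dsp, Dsc2, Jup, Pkp3, Evpl and Pkp1, and the highest Grhl2. Ppl was lowest in mouse 1, and Dsg2 and Pkp2 were higher in mouse 5 than in mouse 4. Between mice 1 and 4, Trp63 went from 131 to 7.01 FPKM while Perp was at 149.7 and 138.8 FPKM. A part of Trp63 in these levels was not tested.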

How the data were processed

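RNA of 8 ADSC cultures, 1 library per mouse and culture, was sequenced after depletion of ribosomal RNA with a directional paired-end protocol. The authors trimmed the reads, mapped them with TopHat (mm10, per the submitters' processing notes) and computed the deposited FPKM values with Cufflinks, without read counts. The annotation and the strand setting of the counting are not given in the sources used here. The deposited values were not quantile normalized, with upper quartiles between 10.7 and 11.4 FPKM, so this step of the study was applied here with limma.

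The 5484 genes without any value above 0 were removed. Values were converted to log2(FPKM + 1), and 3D was compared with 2D with limma 3.58.1 in R 4.3.3, with an intensity trend and without covariates (two-sided, adjusted over 18862 genes, threshold 0.05). Each p measures the spread between mice, of which mice 4 and 5 are in both groups. Their deviations from the culture means correlated at -0.05 and -0.11 over 12577 genes. In simulated data with these group sizes, 94 of 100 genes changed by 3.0 and 77 of 100 changed by 1.5 on the log2 scale were called, with 17 false calls among 18861 genes. The changed genes were drawn only from genes well above 0 on that scale, and the libraries were simulated as independent, without shared mice. The simulation therefore does not cover low genes such as Pkp1 and Evpl.

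Since 1 fragment sets the smallest step in FPKM that a gene can take, depth was derived from low values of 875 genes whose only GENCODE M21 transcript had 3000 nt or more (23310 symbols, 95.7%, matched M21). It was between 16.4 and 17.4 M fragments in 2D and between 14.5 and 15.7 M in 3D, and between 66.4% and 78.2% of these low values lay within 0.15 read of a whole number, so fragment numbers are estimates. A fold against a group with no more than 3 fragments per library is given as a bound at that floor. Promoter sequences are from RefSeq, whose table matched 2 of the 10 genes by symbol.

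The 10 genes are known desmosomal genes. All 10, every gene of the lists (other desmosomal genes, relatives, intermediate filaments, cornified envelope, regulators, cell type markers) and the 5 genes most correlated with Dsp could be named. The members and lists were chosen with earlier results of these data known. Alternatives were the deposited scaling, a fit without the trend, a filter at a mean of 1 FPKM, 0.1 as pseudocount, a block or a random effect for the mouse, mice 4 and 5 alone, and the omission of each library. Leaving out the 2D libraries of mice 3 and 4, these and the 3D library of mouse 1, and a block with mice 4 and 5 exchanged were chosen after seeing the data.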

Additional observations from a re-analysis of the deposited data

Results flagged for a closer look

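In 20 groups of 4 libraries (10 genes in 2 cultures), 3 held a library that stood apart by Dixon's ratio on the FPKM or the log2(FPKM + 1) scale. Chance gives about 1 in 20 for a look on 1 scale. Since 2 scales were used, 3 is not read as an excess over chance. All 3 were the 2D library of mouse 4. Ppl was at 13.4 FPKM there against at most 0.983 FPKM in the other 2D libraries (ratio 0.933), and Perp at 42.2 FPKM against at most 4.66 FPKM (ratio 0.891), both on the FPKM scale and not on the log2(FPKM + 1) scale. That library also had the highest mesothelial markers, at a sum of 2002 FPKM, whose part in these levels was not tested. Dsg2 was at 0.0163 FPKM against 0 in the other 2D libraries. Its ratio of 1.0 on both scales is fixed by the zeros, since any value above 0 would give it, and an estimated 2.95 fragments lie within the floor of 3, so it carries no information about mouse 4.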

How the results depend on the processing

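Dsp, Dsg2, Dsc2, Pkp3 and Evpl were higher in 3D in the reported fit and in all alternatives without a fixed block. Mice 4 and 5 were each in both cultures, so the pairing comes from the animals. With the mouse as a block, and with mice 4 and 5 exchanged in that block, 0 genes were called in either direction among all genes and hence in each list, where 1 residual degree of freedom remains. At an unadjusted p below 0.05 the block gave 2833 genes higher and 2383 lower. As a random effect it called 8 of the 10 desmosomal genes. With only mice 4 and 5, 1788 genes were higher and 1432 lower, 3 relatives were higher and 5 lower, and 0 intermediate filament genes were higher. Leaving out 1 library at a time kept the count of desmosomal genes higher in 3D at 8, and gave between 1 and 4 intermediate filament genes higher (1 without the 2D library of mouse 2 or 5 or the 3D library of mouse 5 or 7) and between 1 and 3 lower (1 without the 2D library of mouse 2 or the 3D library of mouse 4, 5 or 7). The log2 fold change of Pkp2, which was not called, then ran from -0.31 (without the 2D library of mouse 4) to 0.15, and turned positive at 0.15 without the 2D library of mouse 2, 0.10 without that of mouse 5 and 0.04 without the 3D library of mouse 7. Without the 2D libraries of mice 3 and 4, and also without the 3D library of mouse 1 in addition, 7 of the 10 genes were higher (Jup was lost) and 1 was lower (Pkp2). For Pkp2 these omissions take out the 2 lowest 2D values and the highest 3D value, so that call gives no support for a decrease. The cause of these changes was not tested. Depth limits Dsg2, Pkp3 and Pkp1 in 2D, where they rest on 12 or fewer estimated fragments per library, and a fold for the first 2 is only as precise as that.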
